A study of Homo sapiens with 36 samples.

Results

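The RNA levels of 10 genes that ERK signaling switches on and that in turn restrain or carry that signal were followed in all 36 RNA-Seq libraries of 3 melanoma cell lines. The genes were taken by symbol: the phosphatases DUSP4, DUSP5 and DUSP6, the Sprouty genes SPRY2 and SPRY4, the Sprouty-related genes SPRED1 and SPRED2, and the PEA3 transcription factors ETV1, ETV4 and ETV5. Each symbol matched 1 row, so that 10 of the 60656 genes in the files were studied. The lines were 1205LuTR-NR2F1, WM793TR-NR2F1 and A375TR-NR2F1, called 1205Lu, WM793 and A375 here. All carry BRAF-V600E, a Tet repressor and a lentiviral cDNA of NR2F1 under hygromycin selection, which is transcribed when doxycycline (DOX) is added. NR2F1 is an orphan nuclear receptor linked to tumor cell dormancy. 1205Lu was derived from WM793 by passage through mice, while A375 comes from another tumor. Each line had 4 groups of 3 libraries. DMSO libraries received the solvent alone, DMSO + DOX libraries the solvent with DOX at 100 ng/mL, BRAFi + MEKi libraries the BRAF inhibitor PLX4720 at 1 uM with the MEK inhibitor PD0325901 at 35 nM, and BRAFi + MEKi + DOX libraries all of these. Treatment lasted 72 hours and followed 24 hours of culture. The labels give that first day as without or with DOX, whereas the study's methods describe seeding in medium with DOX, so the DOX history of the groups without DOX is uncertain. DOX was never given to cells lacking the cDNA here, so DOX and NR2F1 cannot be told apart as sources of a difference. 1205Lu and WM793 were grown in a medium with 2% serum and insulin and A375 in DMEM with 10% serum, so line and medium cannot be told apart in comparisons with A375.

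ERK is the last kinase of the RAS, RAF, MEK and ERK cascade, which BRAF-V600E keeps switched on in melanoma. Active ERK raises the transcription of its own brakes. DUSP6 removes phosphate from ERK in the cytoplasm, DUSP5 does so in the nucleus, and DUSP4 is a nuclear phosphatase that also acts on JNK and p38. Sprouty proteins dampen the signal between receptor tyrosine kinases and RAF, and SPRED proteins bring neurofibromin to the membrane, where it switches RAS off. ETV1, ETV4 and ETV5 belong to the PEA3 group of ETS factors, whose genes are held down by the repressor CIC until ERK signaling relieves it. The transcripts of this feedback circuit are widely used as a readout of ERK output, and the question here was how far they fell under BRAFi + MEKi in each line and whether NR2F1 induction changed that.

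All expression values are normalized expression per gene as deposited, with no unit of their own, and differences are given on the log2(value + 1) scale. Totals per library ran from 27027824 to 34621958 (median 30838343), and within groups the libraries correlated over all genes at r = 0.947 to 0.983. NR2F1, the induced gene, stood at 917, 321 and 1511 in the 3 DMSO libraries of WM793 and at 76313, 52746 and 65751 in its DMSO + DOX libraries. A375 had 497, 405 and 563 without and 19001, 31632 and 17271 with DOX under DMSO. In 1205Lu, which expresses the gene without DOX, the values were 6273, 2182 and 2327 against 20699, 9155 and 9270.3, an increase that did not pass the test (log2 difference 1.93, adjusted p = 0.412 by limma). Each of these DOX libraries still lay above every library without DOX, and the test did not pair replicates. Under BRAFi + MEKi the increase with DOX passed in all 3 lines (log2 difference 3.33, 4.99 and 4.14 in 1205Lu, WM793 and A375). Replicate 1 of 1205Lu stood apart under the inhibitors: its DUSP6 values of 75.8 and 74.6 compare with 275 to 710 in replicates 2 and 3. Where leaving out its libraries changed a call on a member, both values are given. Of the 8 markers of melanocytes and melanoma, MLANA and TYR were each listed at 0 in 11 of the 12 groups, while SOX10, MITF and PMEL were detected in every group. Markers of other cells (PTPRC and CD3E of leukocytes, EPCAM and CDH1 of epithelium and PECAM1 of endothelium) summed to between 0 and 93.7 per library, and CD3E was at 0 in 10 of the 12 groups.

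The 6 members with a RefSeq promoter window (GRCh38.p14, 250 bases before to 50 after a start site) were DUSP6, SPRY2, SPRY4, SPRED1, SPRED2 and ETV1. They had 14 windows, since SPRED2, SPRY2 and ETV1 have several start sites. The 250 bases before the start site are shown for DUSP6 and SPRY4, which fell under BRAFi + MEKi in every line. They are also shown for a window of ETV1 that holds TGAATGGA, an octamer that CIC binds. Each is written 5′ to 3′ on the gene's strand, and capitals mark a motif match.
DUSP6 chr12:89352502-89352751 (minus strand): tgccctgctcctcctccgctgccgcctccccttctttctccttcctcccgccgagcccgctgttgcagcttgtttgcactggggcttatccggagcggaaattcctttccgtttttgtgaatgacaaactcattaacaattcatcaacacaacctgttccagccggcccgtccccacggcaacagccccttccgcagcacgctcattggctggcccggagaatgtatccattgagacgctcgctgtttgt
SPRY4 chr5:142324248-142324497 (minus strand): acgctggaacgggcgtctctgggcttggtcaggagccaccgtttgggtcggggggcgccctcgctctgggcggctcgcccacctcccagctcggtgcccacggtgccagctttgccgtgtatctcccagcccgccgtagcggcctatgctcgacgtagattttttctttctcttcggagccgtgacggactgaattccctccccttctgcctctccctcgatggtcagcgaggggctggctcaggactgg
ETV1 chr7:13991426-13991675 (minus strand): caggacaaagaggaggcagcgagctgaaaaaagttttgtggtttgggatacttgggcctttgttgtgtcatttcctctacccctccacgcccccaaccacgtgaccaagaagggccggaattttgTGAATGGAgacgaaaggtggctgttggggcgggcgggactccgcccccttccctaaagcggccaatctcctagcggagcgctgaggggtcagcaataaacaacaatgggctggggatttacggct
Searched on both strands, 2 of the 14 windows held a match to a searched motif. The motifs were TGAATGAA, TGAATGGA, the ETS site CCGGAAGT, the AP-1 site TGANTCA, the CRE TGACGTCA and the CArG box. TGAATGAA and TGAATGGA are among the octamers that CIC binds, and other forms of its site were not searched. The CArG box is the site of serum response factor. ETV1 had TGAATGGA 125 bases before its first start site, and its other windows held no match. SPRED2 had TGANTCA at 6 bases before and 34 bases after an internal start site. Among the 35116 promoter windows of the table, 1.65% held TGAATGAA, 1.03% TGAATGGA, 4.14% CCGGAAGT, 7.71% TGANTCA, 1.85% TGACGTCA and 1.29% the CArG box. None of the 6 motifs was found in the windows of DUSP6, SPRY2, SPRY4 and SPRED1, which says only that these letters are not in these windows. It does not show that the windows lack every octamer that CIC binds.

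On GRCh38 with GENCODE 44, DUSP4 lies at chr8:29333064-29350684, DUSP5 at chr10:110497907-110511533 and DUSP6 at chr12:89347235-89352501. SPRY2 lies at chr13:80335976-80341126, SPRY4 at chr5:142310427-142326455, SPRED1 at chr15:38252836-38357249 and SPRED2 at chr2:65310851-65432637. ETV1 lies at chr7:13891229-13991425, ETV4 at chr17:43527844-43579620 and ETV5 at chr3:186046314-186110318. DUSP5 and SPRED1 are on the plus strand and the other 8 on the minus strand. The library kit does not mark strand, so reads from a gene and an overlapping gene on the other strand cannot be told apart. For DUSP6, 1105 of its 3859 exon bases also lie in exons of a long noncoding RNA gene on the opposite strand, whose own mean was 29.6 over the 36 libraries. ETV4 shares 68 exon bases with DHX8 on the opposite strand and ETV5 164 with DGKG on the same strand. The other 7 genes share no exon base with another gene.

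Without inhibitors, SPRY4 or SPRY2 was the most abundant of the 10 per length in every line. In 1205Lu, SPRY4 led at 1886 ± 182 per kb of exon (SD, n = 3), overlapping SPRY2 at 1504 ± 348. ETV5, DUSP6, DUSP5, SPRED2, ETV4, SPRED1 and DUSP4 followed, from 918 ± 203 down to 471.0 ± 44.9, each overlapping its neighbor in that order. ETV1 was the lowest at 116 ± 31.1, below every other member. WM793 had SPRY4 at 5275 ± 545, above all others, then DUSP4 at 2604 ± 361 and SPRY2 at 2562 ± 467, which overlapped. DUSP6 at 1099 ± 225 and SPRED1 at 1075 ± 112 overlapped. ETV4, ETV5, SPRED2 and ETV1 followed between 685 and 587, each overlapping its neighbor in that order, and DUSP5 was the lowest at 140.4 ± 29.6. In A375, SPRY2 at 2383 ± 105 stood above ETV4, DUSP4 and DUSP6, which overlapped between 1275 and 1168. SPRY4, ETV5, SPRED1, DUSP5 and SPRED2 followed between 454 and 297, with overlaps between neighbors, and ETV1 was again the lowest at 231 ± 24.8.

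All 10 genes were expressed in all 3 lines before treatment, at levels that differed between lines for some of them. Tested in a fit of all 36 libraries with limma, 6 of the 10 genes differed in DMSO between 1205Lu and WM793 (30.7% of all genes tested were called), 7 between 1205Lu and A375 (46.8%) and 6 between WM793 and A375 (47.5%). The counts against A375 are not set apart from these shares of all genes. SPRY4 spanned the widest range, with 10981, 13056 and 13049 in 1205Lu, 38213, 34443 and 31074 in WM793 and 2179, 2322 and 4418 in A375. WM793 exceeded A375 by 12.2-fold (log2 difference 3.61, SE 0.32, adjusted p = 9.05e-11), and the 3 lines did not overlap. DUSP4 was 5.51-fold lower in 1205Lu than in WM793 (log2 difference -2.46, SE 0.26, adjusted p = 6.45e-09). DUSP5 ran the other way and was 5.54-fold higher in 1205Lu than in WM793 (log2 difference 2.47, SE 0.31, adjusted p = 2.21e-07). ETV1 was 5.2-fold lower in 1205Lu than in WM793 (adjusted p = 5.32e-06) and 2.04-fold lower than in A375 (adjusted p = 0.0212), a call lost with array weights (adjusted p = 0.0543) and without 1205Lu DMSO replicate 1 (0.0957) or 2 (0.0527) or A375 DMSO replicate 2 (0.0624) or 3 (0.0530). ETV5 was 2.06-fold higher in 1205Lu than in A375 (adjusted p = 0.0127), which did not pass without 1205Lu DMSO replicate 3 (log2 difference 0.87, adjusted p = 0.0677). ETV4 did not pass between 1205Lu and A375 (-1.07, adjusted p = 0.065) but was called after rescaling to the same total (-1.20, adjusted p = 0.0403) and with the replicate block (adjusted p = 0.0192). ETV5 did not pass between WM793 and A375 (0.55, adjusted p = 0.198) but was called with the replicate block (adjusted p = 0.045). For DUSP6 no pair of lines passed: the log2 differences were -0.40, -0.48 and -0.08, with 95% confidence intervals as wide as -1.53 to 0.58.

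**Figure D1:**
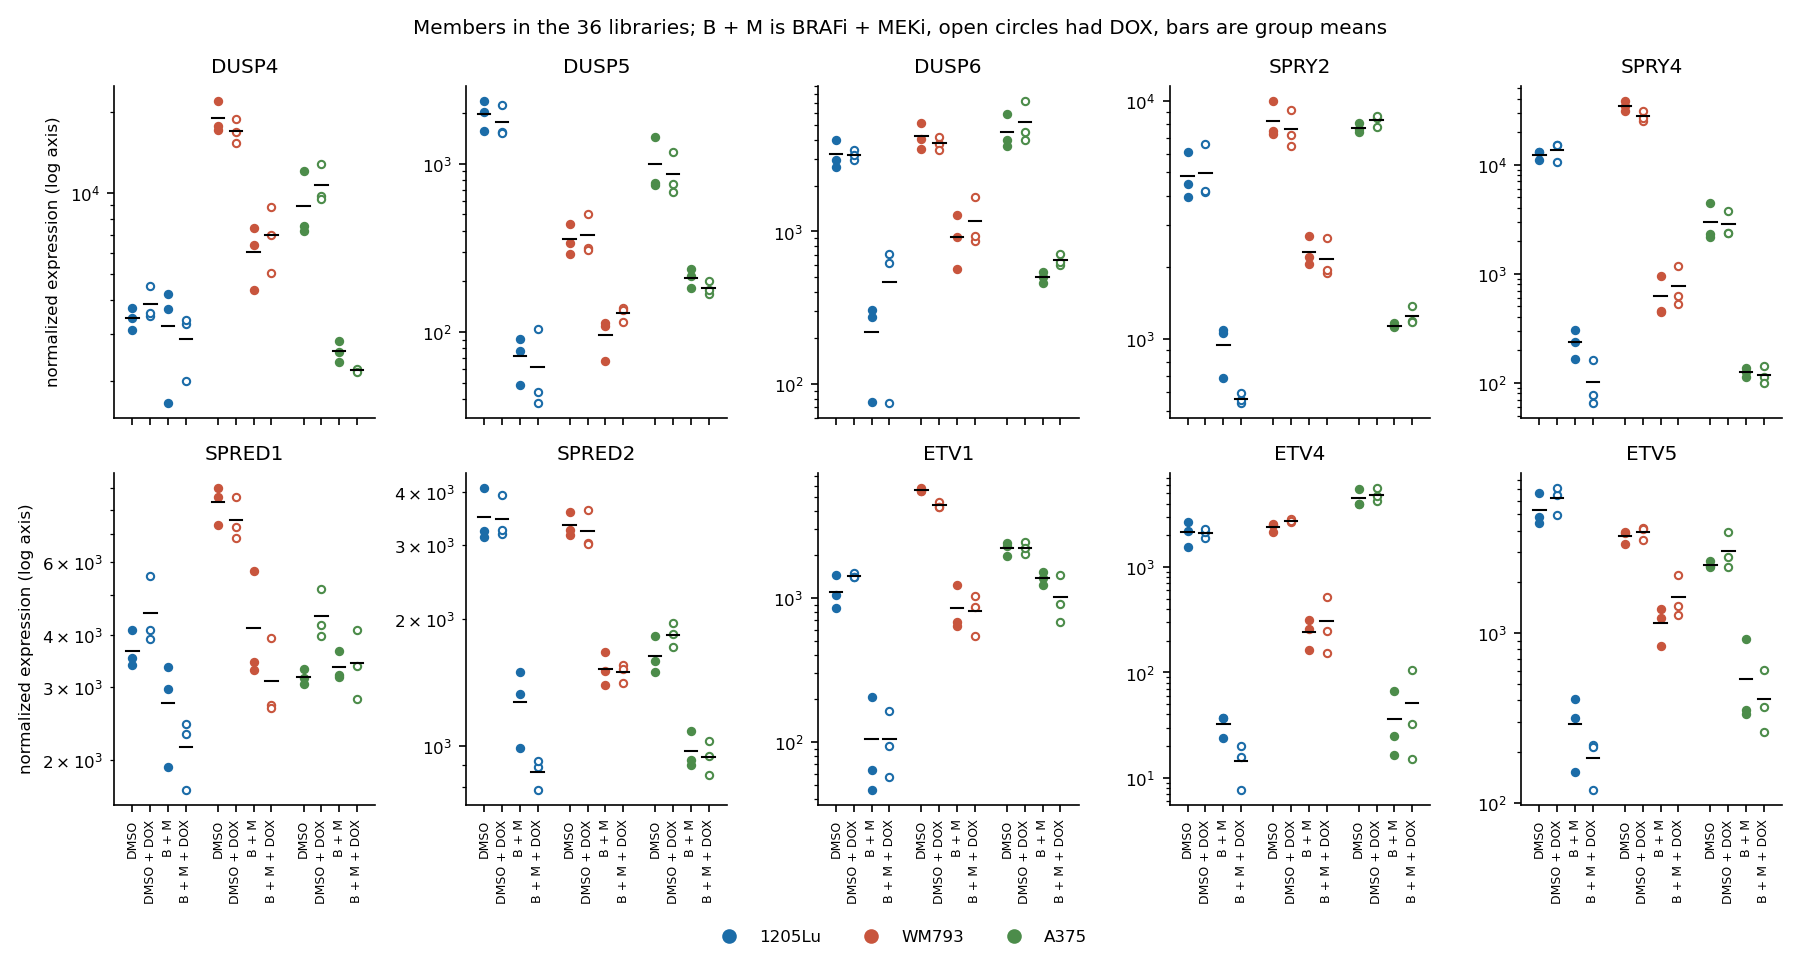
Normalized expression (log axis) of the 10 genes in the 36 libraries; each point is 1 library, open circles had DOX and bars are means of 3 libraries. SPRY4 and ETV4 drop furthest under BRAFi + MEKi, and 1 library in each inhibitor group of 1205Lu has DUSP6 near 75. SPRED1 in A375 overlaps between DMSO and BRAFi + MEKi without and with DOX, and DUSP4 in 1205Lu does so without DOX only.

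BRAFi + MEKi lowered nearly all of these genes. Without DOX, 8 of 10 fell in 1205Lu, where 14.4% of all genes tested were called lower and 16.5% higher, 10 of 10 fell in WM793 (16.9% lower, 20.4% higher) and 9 of 10 fell in A375 (19% lower, 20.5% higher), tested with limma and adjusted by Benjamini-Hochberg over all genes. DUSP5, DUSP6, SPRY2, SPRY4, SPRED2, ETV1, ETV4 and ETV5 fell in all 3 lines, DUSP4 in WM793 and A375, and SPRED1 in WM793. None rose. All 3 treated libraries lay below all 3 DMSO libraries for 9 genes in 1205Lu (19.3% of all genes did so), 10 in WM793 (19.9%) and 9 in A375 (24.7%). The median log2 difference of the 10 was -3.87, against 0.11 over all genes tested, in 1205Lu, -1.85 against 0.15 in WM793 and -2.29 against 0.06 in A375. Summed per kb of exon, the 10 genes stood at 8227 ± 347 in DMSO and 1513 ± 445 under BRAFi + MEKi in 1205Lu. The 3 BRAFi + MEKi libraries of that line summed to 999.5, 1745 and 1793, and replicates 2 and 3 alone averaged 8029 in DMSO and 1769 under BRAFi + MEKi. The sums were 15276 ± 1460 and 3098 ± 669 in WM793, and 8272 ± 1435 and 1799 ± 86.6 in A375. In each line the genes that made up the sum changed: SPRY4 went from 23.0% to 2.55% of it in 1205Lu and from 34.5% to 2.95% in WM793, and ETV4 from 15.4% to 0.563% in A375. SPRED1 and DUSP4 then held 23.6% and 28.2% of the sum in 1205Lu, up from 5.74% and 5.72%. In bulk RNA, fewer cells that express a gene and less RNA per cell cannot be told apart. Markers of melanocytes and melanoma moved with the treatment: 4 of 6 tested rose in 1205Lu, 4 of 6 in WM793 and 5 of 7 in A375, and none fell. The summed level of the 8 markers lay between 18328 and 25035 in DMSO and between 53216 and 61028 under BRAFi + MEKi in 1205Lu. In WM793 the ranges were 23046 to 29121 and 45277 to 54504, and in A375 17547 to 20001 and 28066 to 44634. The sum of the 5 markers of other cells was 0 to 15.5 in both groups of 1205Lu together, 0.555 to 93.7 in those of WM793, and 5.54 to 15.5 in DMSO against 22.1 to 37.0 under BRAFi + MEKi in A375. Of the markers of dedifferentiated melanoma, AXL, NGFR and SOX9, 1 of 3 fell in 1205Lu (AXL), 2 of 3 rose in WM793 (AXL and NGFR) and 1 of 3 fell in A375 (AXL), and their sums did not move the same way in the 3 lines. They went from between 13565 and 17171 in DMSO to between 14020.1 and 18067 under BRAFi + MEKi in 1205Lu, from between 2404 and 4516 to between 6619.8 and 21159 in WM793, and from between 9396 and 11425 to between 3038 and 5432 in A375. The part of these markers in the result was not tested.

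Among the phosphatases, DUSP5 and DUSP6 fell in every line and DUSP4 in WM793 and A375. DUSP6, the cytoplasmic ERK phosphatase, stood at 4012, 2661 and 2968 in DMSO and at 75.8, 275 and 305 under BRAFi + MEKi in 1205Lu. WM793 had 4069.9, 5183 and 3470.0 against 1283, 565 and 927. A375 had 3669.8, 3979 and 5870.2 against 505, 461 and 545. No treated library reached a DMSO library of its line, and the decreases were 17-fold, 4.77-fold and 8.76-fold (log2 difference -4.08, SE 0.68; -2.25, SE 0.28; -3.13, SE 0.21). The adjusted p values were 0.000514, 3.3e-05 and 8.84e-08. Without the BRAFi + MEKi library of replicate 1, the log2 difference of DUSP6 in 1205Lu was -3.45 (adjusted p = 0.00275), and without all of replicate 1 it was -3.27 (adjusted p = 9.86e-07). DUSP5, the nuclear ERK phosphatase, went from 2352, 2029.5 and 1552 to 90.5, 77.2 and 48.2 in 1205Lu, a 27.6-fold decrease (log2 difference -4.79, SE 0.35, adjusted p = 7.16e-07). Its decrease was 3.71-fold in WM793, from 438, 338 and 292 to 67.3, 113 and 108 (adjusted p = 8.27e-05). In A375 it was 4.49-fold, from 746, 771 and 1447 to 235, 214 and 181 (adjusted p = 1.44e-05). All treated libraries lay below all DMSO libraries in the 3 lines, and the treated libraries of 1205Lu, the line that started highest, overlapped those of WM793 and lay below those of A375. DUSP4 behaved differently. In 1205Lu it stood at 3750.1, 3429 and 3096 in DMSO and 1661, 4236 and 3707 under BRAFi + MEKi; the groups overlapped and the difference did not pass (log2 difference -0.20, 95% confidence interval -0.83 to 0.42, adjusted p = 0.642). The sign of that difference rested on replicate 1: it was 0.21 (adjusted p = 0.501) without its BRAFi + MEKi library and 0.28 (adjusted p = 0.0657) without all of replicate 1. In WM793 it fell 3.18-fold, from 21949, 17137 and 17738 to 7395, 4376 and 6422 (adjusted p = 3.24e-05), and in A375 3.35-fold, from 7542, 7204 and 12026 to 2831, 2578 and 2368 (adjusted p = 3.12e-06). The treated WM793 libraries still held more DUSP4 than any DMSO library of 1205Lu.

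SPRY4 fell further than any other Sprouty or SPRED gene in each line. The 3 DMSO and 3 BRAFi + MEKi libraries of 1205Lu had 10981, 13056 and 13049 and 236, 166 and 306. Those of WM793 had 38213, 34443 and 31074 and 954, 446 and 452. A375 had 2179, 2322 and 4418 and 136, 126 and 113. The groups were far apart, with decreases of 53.7-fold (SE 0.30 on the log2 scale, adjusted p = 5.15e-08), 59.6-fold (SE 0.29, adjusted p = 2e-08) and 22.4-fold (SE 0.26, adjusted p = 2.71e-08). SPRY2, its paralog, fell 5.12-fold in 1205Lu, from 6084, 4484 and 3930.0 to 687, 1092 and 1066 (adjusted p = 6.92e-06). WM793 showed 3.52-fold, from 9958, 7478 and 7256 to 2712, 2063 and 2204 (adjusted p = 2.98e-06), and A375 6.7-fold, from 7362, 7582 and 8026 to 1168, 1123 and 1134 (adjusted p = 8.81e-10). A375 gave the smallest SE of the 10 genes here, 0.09 on the log2 scale. The SPRED genes changed less than the Sprouty genes by estimate. SPRED2 went from 4100.4, 3139 and 3242 to 989.6, 1329.8 and 1495 in 1205Lu, from 3583, 3174 and 3258 to 1395, 1506 and 1666 in WM793 and from 1594, 1493 and 1820.5 to 899, 927 and 1086 in A375. These were decreases of 2.77-fold, 2.19-fold and 1.69-fold (adjusted p = 3.2e-05, 3.36e-06 and 0.000206) with no overlap. SPRED1, which binds neurofibromin as SPRED2 does, stood at 3056, 3156 and 3315 in DMSO and 3204, 3167 and 3663 under BRAFi + MEKi in A375; these groups overlapped, the mean being slightly higher with inhibitors (log2 difference 0.07, 95% confidence interval -0.22 to 0.37, adjusted p = 0.706). In 1205Lu all 3 treated libraries, at 1926, 2962 and 3357, lay below the DMSO libraries, at 4099.6, 3518 and 3377, but the difference did not pass (log2 difference -0.45, adjusted p = 0.128), and it was -0.21 (adjusted p = 0.462) without the BRAFi + MEKi library of replicate 1. WM793 fell 2.06-fold, from 8592, 9029 and 7360.5 to 5689.5, 3449.9 and 3301 (adjusted p = 0.000993). The call was lost without replicate 2 (log2 difference -0.88, adjusted p = 0.0532).

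The PEA3 factors fell in every line, and by estimate ETV4 fell furthest in each, followed by ETV5 in 1205Lu and A375 and by ETV1 in WM793. ETV4 went from 1549, 2692 and 2218 to 23.8, 36.8 and 37.4 in 1205Lu. It went from 2154, 2579.9 and 2485 to 311, 165 and 257 in WM793. In A375 it went from 3928, 3966 and 5549 to 16.5, 25.2 and 66.8. The groups did not overlap, and the decreases were 63.6-fold (SE 0.32 on the log2 scale, adjusted p = 6.39e-08), 10.1-fold (SE 0.33, adjusted p = 4.39e-06) and 140-fold (SE 0.56, adjusted p = 3.98e-07). ETV5, the closest relative of ETV4 and ETV1 among ETS factors, fell 19.4-fold in 1205Lu, from 4434, 4827 and 6628 to 151, 316 and 406 (adjusted p = 1.02e-06). The decrease was 3.29-fold in WM793, from 3906, 3902 and 3329 to 1389, 838 and 1219 (adjusted p = 1.9e-05). It was 5.29-fold in A375, from 2443, 2653 and 2490.4 to 353, 332 and 922 (adjusted p = 0.000106), where replicate 3 kept the highest value. ETV1 fell 12.6-fold in 1205Lu, from 851, 1041 and 1435 to 46.6, 64.1 and 206 (log2 difference -3.65, adjusted p = 6.23e-05). Without BRAFi + MEKi replicate 3, the highest of these libraries, the ETV1 log2 difference was -4.28 (adjusted p = 1.22e-05). WM793 showed a 6.96-fold decrease, from 5500.4, 5567 and 5836 to 1230.2, 678 and 635 (adjusted p = 1.21e-06). In A375 the decrease was only 1.61-fold, from 1954, 2413 and 2292 to 1516, 1383 and 1236, without overlap (log2 difference -0.69, SE 0.21, adjusted p = 0.0168). That call was lost when libraries were rescaled to the same total (log2 difference -0.53, adjusted p = 0.0535). It was also lost without DMSO replicate 2 (-0.62, adjusted p = 0.0609), DMSO replicate 3 (-0.66, 0.0504) or BRAFi + MEKi replicate 3 (-0.61, 0.0596). Leaving out all libraries of replicate 1 (-0.85, 0.0694) or replicate 2 (-0.63, 0.0740) lost it too.

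**Figure D2:**
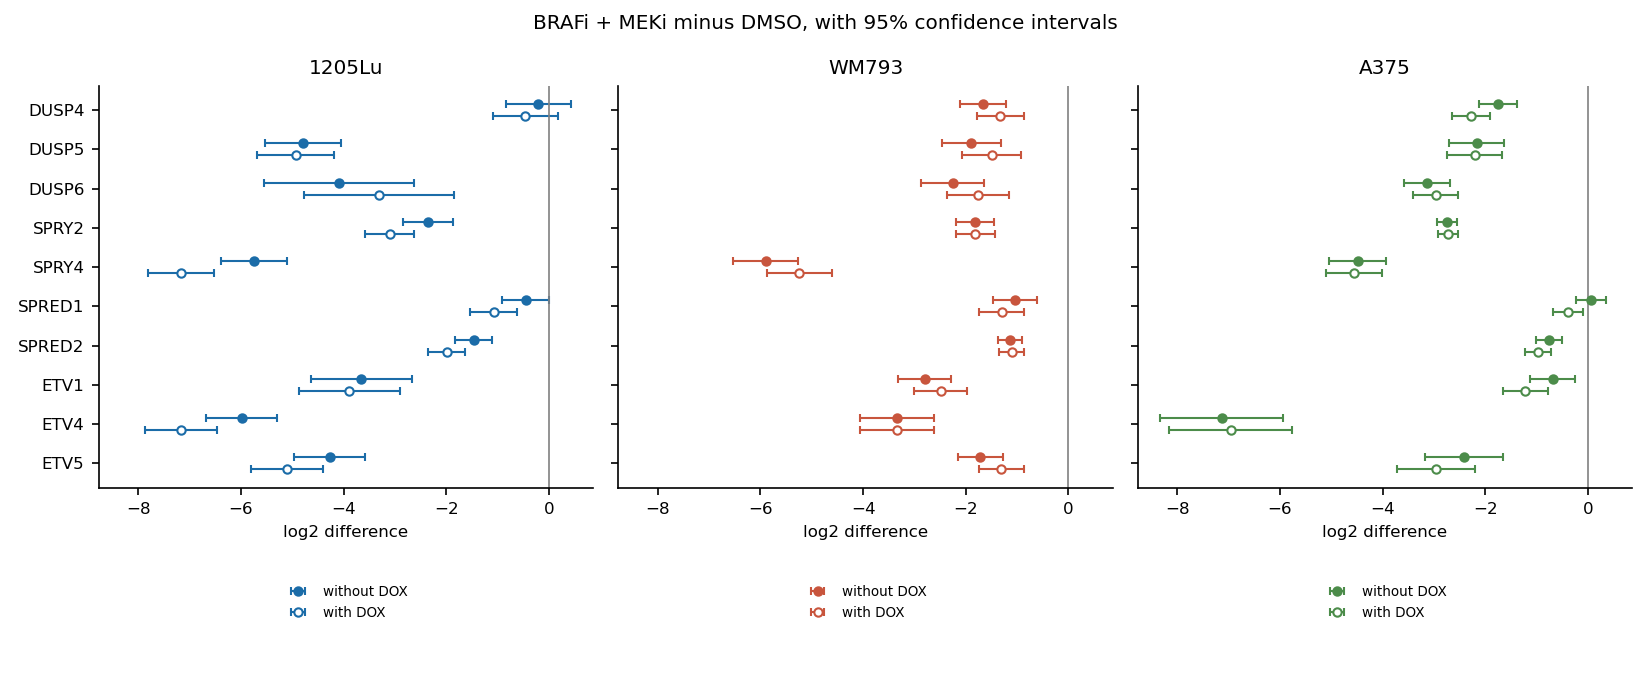
Log2 differences between BRAFi + MEKi and DMSO (x axis) for the 10 genes in each line, without DOX (filled) and with DOX (open), with 95% confidence intervals from the fit of 12 libraries. All estimates but SPRED1 in A375 without DOX lie below 0, and the intervals of DUSP6 are widest in 1205Lu.

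The size of the decrease differed between lines for 4 of 10 genes between 1205Lu and WM793 (14.5% of all genes tested were called), 5 between 1205Lu and A375 (14.7%) and 5 between WM793 and A375 (22.8%), tested as an interaction in the fit of all 36 libraries. Between 1205Lu and WM793, which share an origin and a medium, DUSP5, ETV4 and ETV5 fell further in 1205Lu. The log2 differences between the decreases were -2.90 (SE 0.44, adjusted p = 3.03e-05) for DUSP5, -2.65 (SE 0.67, adjusted p = 0.00673) for ETV4 and -2.56 (SE 0.49, adjusted p = 0.000414) for ETV5. DUSP4 was the reverse, falling in WM793 and not called in 1205Lu, with a difference of 1.47 (SE 0.37, adjusted p = 0.00584). The same phosphatase differed between 1205Lu and A375 by 1.54 (adjusted p = 0.00405). DUSP5 (-2.62, adjusted p = 0.00013), SPRED2 (-0.72, adjusted p = 0.0095), ETV1 (-2.97, adjusted p = 0.000189) and ETV5 (-1.87, adjusted p = 0.00845) fell further in 1205Lu than in A375. The ETV1 difference was -3.60 (adjusted p = 2.52e-06) without 1205Lu BRAFi + MEKi replicate 3. Between WM793 and A375, ETV4 fell further in A375 (3.79, SE 0.67, adjusted p = 9.96e-05) and ETV1 further in WM793 (-2.11, SE 0.52, adjusted p = 0.00315). SPRY2 fell further in A375 (0.93, adjusted p = 0.0097) and SPRED1 further in WM793 (-1.12, adjusted p = 0.00464). SPRY4 also fell further in WM793 (-1.41, adjusted p = 0.0233), but 6 of the 12 fits that left out 1 library lost the call. These were the fits without WM793 DMSO replicate 1 (adjusted p = 0.0535), WM793 BRAFi + MEKi replicate 2 (0.072) or 3 (0.071), A375 DMSO replicate 1 (0.0707) or 2 (0.0625), or A375 BRAFi + MEKi replicate 1 (0.0518). Their log2 differences ran from -1.35 to -1.22. The differences of SPRY4, SPRED1 and ETV1 that did not pass in this fit were called in some of the others. For SPRY4, 1205Lu fell further than A375 by -1.26 (adjusted p = 0.0594), which was called with the replicate block (-1.26, adjusted p = 0.0254), with array weights (-1.42, adjusted p = 0.00668) and without 1205Lu BRAFi + MEKi replicate 3 (-1.47, adjusted p = 0.0417) or A375 DMSO replicate 3 (-1.58, adjusted p = 0.0188). For SPRED1, 1205Lu minus WM793 was 0.60 (adjusted p = 0.184), called with array weights (0.91, adjusted p = 0.00597) and without BRAFi + MEKi replicate 1 of 1205Lu (0.83, adjusted p = 0.0442) or of WM793 (0.85, adjusted p = 0.0354). For ETV1, 1205Lu minus WM793 was -0.86 (adjusted p = 0.321), and leaving out 1205Lu BRAFi + MEKi replicate 3 made it -1.49, a call (adjusted p = 0.0206). DUSP6 did not pass in any pair; the difference between 1205Lu and WM793 was -1.83 with a 95% confidence interval of -3.32 to -0.34 (adjusted p = 0.0954). Without the 1205Lu BRAFi + MEKi library of replicate 1 that difference was -1.19 (adjusted p = 0.306).

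With NR2F1 induced, BRAFi + MEKi lowered 9 of 10 genes in 1205Lu (13.2% of all genes tested were called lower and 15.1% higher), 10 in WM793 (15.1% lower, 16.7% higher) and 10 in A375 (14.8% lower, 16.2% higher). The markers of melanocytes and melanoma again moved with the treatment, with 4 of 6 tested higher in 1205Lu, 3 of 6 in WM793 and 4 of 7 in A375, and none lower. Their summed level lay between 13213 and 19990.2 in DMSO + DOX and between 29825 and 75885 in BRAFi + MEKi + DOX in 1205Lu, between 24183 and 26087 and between 32746 and 44309.5 in WM793, and between 13029 and 15703 and between 21376 and 28402 in A375. Of the dedifferentiated melanoma markers, 1 of 3 fell in 1205Lu, 2 of 3 rose in WM793 and 1 of 3 fell in A375. Their sums went from between 15627 and 16669 to between 13096 and 14952 in 1205Lu, from between 1931 and 3588 to between 5725 and 13796.5 in WM793, and from between 8148 and 12257 to between 2997 and 3711 in A375. Markers of other cells summed to between 0 and 48.8 in these groups, and the part of the markers in the result was not tested here either. The DOX comparisons have their own DMSO libraries and share none with those without DOX. SPRY4 fell 143-fold in 1205Lu, from 10506, 15278 and 15273 in DMSO + DOX to 162, 76.6 and 64.9 in BRAFi + MEKi + DOX (adjusted p = 9.95e-09). ETV4 fell 144-fold in that line, from 1871, 2155 and 2292 to 20.2, 7.73 and 15.7 (adjusted p = 1.76e-08). DUSP6 stood at 3409, 2932 and 3203 in DMSO + DOX and 74.6, 617 and 710.1 with inhibitors, a 9.88-fold decrease (log2 difference -3.31, adjusted p = 0.00276) that became -2.26 (adjusted p = 0.00231) once replicate 1 of the treated group was left out and -2.21 (adjusted p = 5.71e-06) without all of replicate 1. In WM793 with DOX, DUSP6 fell 3.39-fold to 1693, 871 and 929.6, SPRY4 37.9-fold to 1170.4, 526 and 622 and ETV4 10.1-fold to 521, 155 and 246. In A375 these genes fell 7.8-fold to 712, 603 and 628, 23.5-fold to 113, 98.4 and 142 and 125-fold to 15.2, 32.5 and 107. The ETV4 decrease in A375, -6.96 on the log2 scale, was -6.33 when treated replicate 1 was left out and -7.70 when treated replicate 3 was left out, the library with the most ETV4. SPRED1 passed in 1205Lu with DOX, from 5549.5, 4108 and 3917 to 1699, 2314 and 2442 (log2 difference -1.07, SE 0.21, adjusted p = 0.00213), whereas DUSP4, at 4508, 3509 and 3589.9 and 2001, 3254 and 3372, did not (log2 difference -0.46, 95% confidence interval -1.08 to 0.17, adjusted p = 0.269). The DUSP4 groups did not overlap here, unlike those without DOX. In A375, SPRED1 passed narrowly, with 5142, 4222 and 3986 in DMSO + DOX and 3369.6, 2798 and 4103 under BRAFi + MEKi + DOX (log2 difference -0.39, adjusted p = 0.0447). Those groups overlapped, and the call was lost in several fits. The log2 difference stayed at -0.39 without the filter on low values (adjusted p = 0.0573) and with only both groups in the fit (0.109). It was -0.42 without DMSO + DOX replicate 2 (0.0698) and -0.38 without BRAFi + MEKi + DOX replicate 1 (0.104). A smaller difference was left after rescaling to the same total (-0.25, 0.18) and without DMSO + DOX replicate 1 (-0.28, 0.159) or BRAFi + MEKi + DOX replicate 2 (-0.25, 0.189). The same held without all libraries of replicate 1 (-0.28, 0.355) or 2 (-0.28, 0.308). ETV1 fell 2.32-fold in A375 with DOX, from 2452, 2032 and 2230.0 to 906, 679.8 and 1441 (adjusted p = 0.000563).

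Without inhibitors, no change of these genes with DOX passed the test. By limma, 0 of the 10 passed in 1205Lu (0.00903% of all genes tested were called), WM793 (0.512%) or A375 (0.0492%). At an unadjusted p under 0.05 there were 0, 0 and 1, counts for which no share of all genes was computed. The log2 differences ran from -0.17 to 0.40 in 1205Lu, from -0.36 to 0.20 in WM793 and from -0.16 to 0.48 in A375. The A375 value was that of SPRED1, with 3056, 3156 and 3315 in DMSO and 5142, 4222 and 3986 with DOX and no overlap (adjusted p = 0.385; 5.55% of all genes were higher in every library). In WM793, ETV1 was lower in every library with DOX, at 4649.8, 4283 and 4272 against 5500.4, 5567 and 5836, as were 6.48% of all genes (log2 difference -0.36, adjusted p = 0.685), and ETV4 was higher in every library, as were 6.8% of all genes (0.20, adjusted p = 0.906). The 95% confidence intervals ran from -0.09 to 0.31 for SPRY2 in A375, the narrowest, to -1.46 to 1.47 for DUSP6 in 1205Lu, the widest. In A375 the summed melanocyte and melanoma markers were lower in every DOX library, at 13029 to 15703 against 17547 to 20001. They overlapped in 1205Lu (13213 to 19990 with DOX, 18328 to 25035 without) and WM793 (24183 to 26087 with, 23046 to 29121 without). Of the 6, 6 and 7 markers tested in 1205Lu, WM793 and A375, 0 were called by limma, and their part was not tested.

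Under BRAFi + MEKi, no member passed the test for an effect of DOX in the fit of 12 libraries per line (0 of 10 each in 1205Lu, WM793 and A375; 0.334%, 0.204% and 1.52% of all genes tested were called by limma). At an unadjusted p under 0.05 there were 4 in 1205Lu, 1 in WM793 and 1 in A375. The share of all genes at that unadjusted p was not computed, so these counts cannot be set against it. The 4 in 1205Lu were SPRY2, SPRY4, SPRED2 and ETV4, each lower with DOX in every library, as were 6.53% of all genes. SPRY4 had 236, 166 and 306 without and 162, 76.6 and 64.9 with DOX (log2 difference -1.29, 95% confidence interval -1.93 to -0.64, adjusted p = 0.0918). SPRY2 had 687, 1092 and 1066 against 539.8, 558 and 596 (log2 difference -0.72, 95% confidence interval -1.20 to -0.24, adjusted p = 0.237). ETV4 had 23.8, 36.8 and 37.4 against 20.2, 7.73 and 15.7 (log2 difference -1.18, 95% confidence interval -1.88 to -0.49, adjusted p = 0.16). The DOX libraries were lower for all 3 genes, by 0.72 to 1.29 on the log2 scale. SPRED2 had 989.6, 1329.8 and 1495 against 891, 786 and 922 (log2 difference -0.54, adjusted p = 0.243). DUSP6 went the other way in 2 of 3 replicates, at 75.8, 275 and 305 without and 74.6, 617 and 710.1 with DOX, with overlap (log2 difference 0.79, 95% confidence interval -0.68 to 2.25, adjusted p = 0.783). The summed melanocyte and melanoma markers lay between 53216 and 61028 without and 29825 and 75885 with DOX in these 1205Lu libraries, and their part was not tested.

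**Figure D3:**
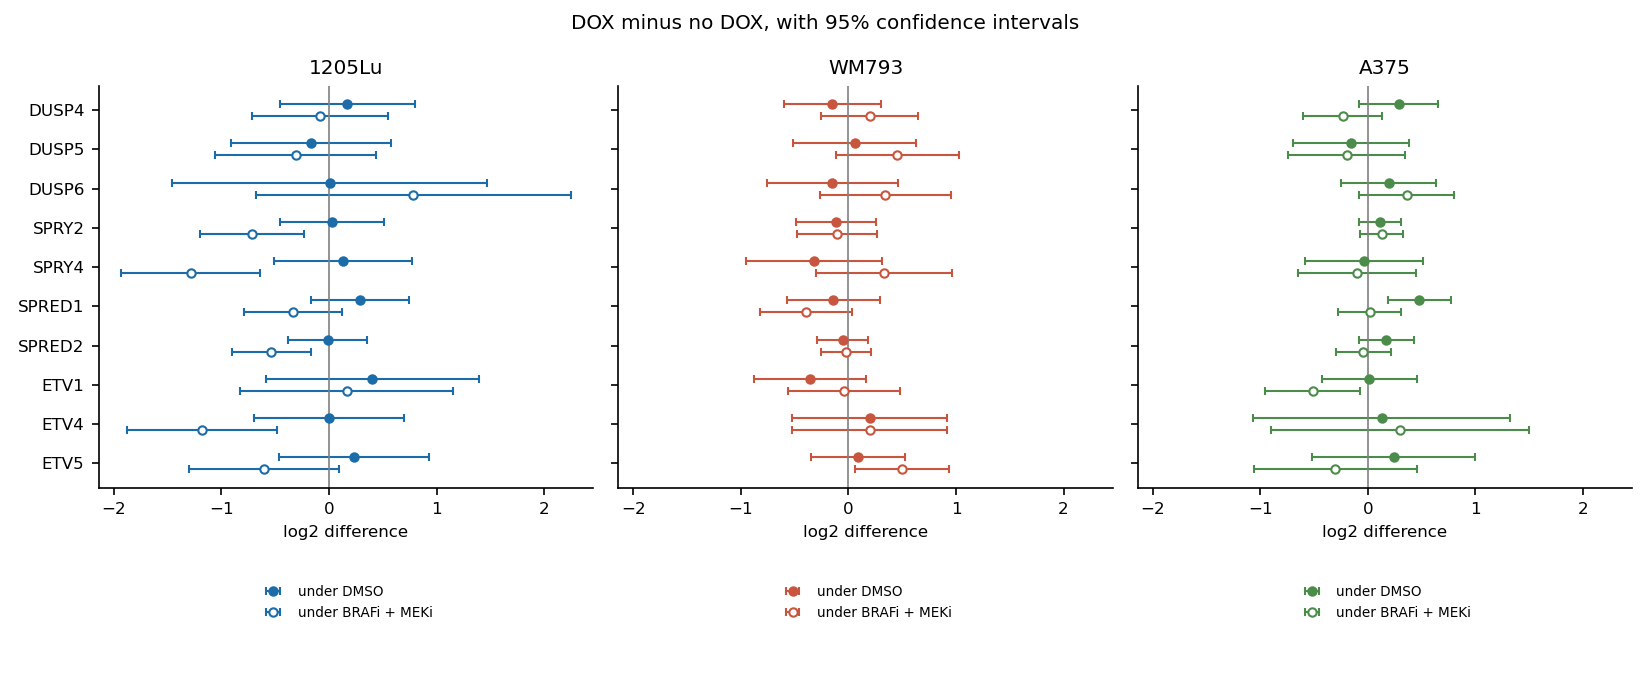
Log2 differences between libraries with and without DOX (x axis) for the 10 genes in each line, under DMSO (filled) and under BRAFi + MEKi (open), with 95% confidence intervals from the fit of 12 libraries. The intervals that leave out 0 before adjustment are those of SPRY2, SPRY4, SPRED2 and ETV4 in 1205Lu and ETV5 in WM793 under BRAFi + MEKi, ETV1 in A375 under BRAFi + MEKi, and SPRED1 in A375 under DMSO.

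The 1205Lu result depended on replicate 1. Without the BRAFi + MEKi + DOX library of replicate 1, 3 genes were called, and 3.32% of all genes tested: DUSP6 higher with DOX (log2 difference 1.83, adjusted p = 0.0439), SPRY4 lower (-1.68, adjusted p = 0.00309) and ETV4 lower (-1.45, adjusted p = 0.0286). That fit kept the BRAFi + MEKi library of replicate 1, whose DUSP6 was about as low, so the removal itself raised the DUSP6 difference. Without all 4 libraries of replicate 1, an alternative added after the values were seen, 7 were called, and 6.47% of all genes tested. DUSP6 was higher with DOX (1.19, adjusted p = 0.00147), while SPRY2 (-0.90, adjusted p = 0.00212), SPRY4 (-1.66, adjusted p = 0.00613), SPRED2 (-0.73, adjusted p = 0.00845), ETV4 (-1.66, adjusted p = 0.0134), ETV5 (-0.74, adjusted p = 0.0441) and SPRED1 (-0.41, adjusted p = 0.0476) were lower. With array weights, which limma estimates to give less weight to libraries that fit the model less well, SPRY4 (-1.63, adjusted p = 0.00163), ETV4 (-1.44, adjusted p = 0.00882), SPRY2 (-0.79, adjusted p = 0.0163) and SPRED2 (-0.63, adjusted p = 0.0163) were called, 4 of the 10 genes against 6.23% of all genes tested. Leaving out all of replicate 2 or all of replicate 3 instead called 0 members, and 0% and 0.00445% of all genes tested. Over all fits run, the log2 difference ranged from -1.68 to -0.82 for SPRY4 and from -1.66 to -0.71 for ETV4. In both inhibitor groups, replicate 1 had the lowest DUSP4, DUSP6, SPRY2, SPRED1 and ETV5 and the highest DUSP5. A difference between the DOX effects under BRAFi + MEKi and DMSO passed for 0 of the 10 genes with all libraries in the fit, by limma (SPRY4, log2 difference -1.42, 95% confidence interval -2.33 to -0.51, adjusted p = 0.786; 0% of all genes tested were called). An unadjusted p under 0.05 was seen for 4 members, with no share of all genes computed at that level. The count of members that passed went to 1 without the BRAFi + MEKi + DOX library of replicate 1 (SPRY4, adjusted p = 0.0439; 0.257% of all genes) and to 3 without all of replicate 1 (0.982% of all genes). These were DUSP6 (1.06, adjusted p = 0.0364), SPRY2 (-0.89, adjusted p = 0.036) and SPRY4 (-1.89, adjusted p = 0.0487).

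**Figure D4:**
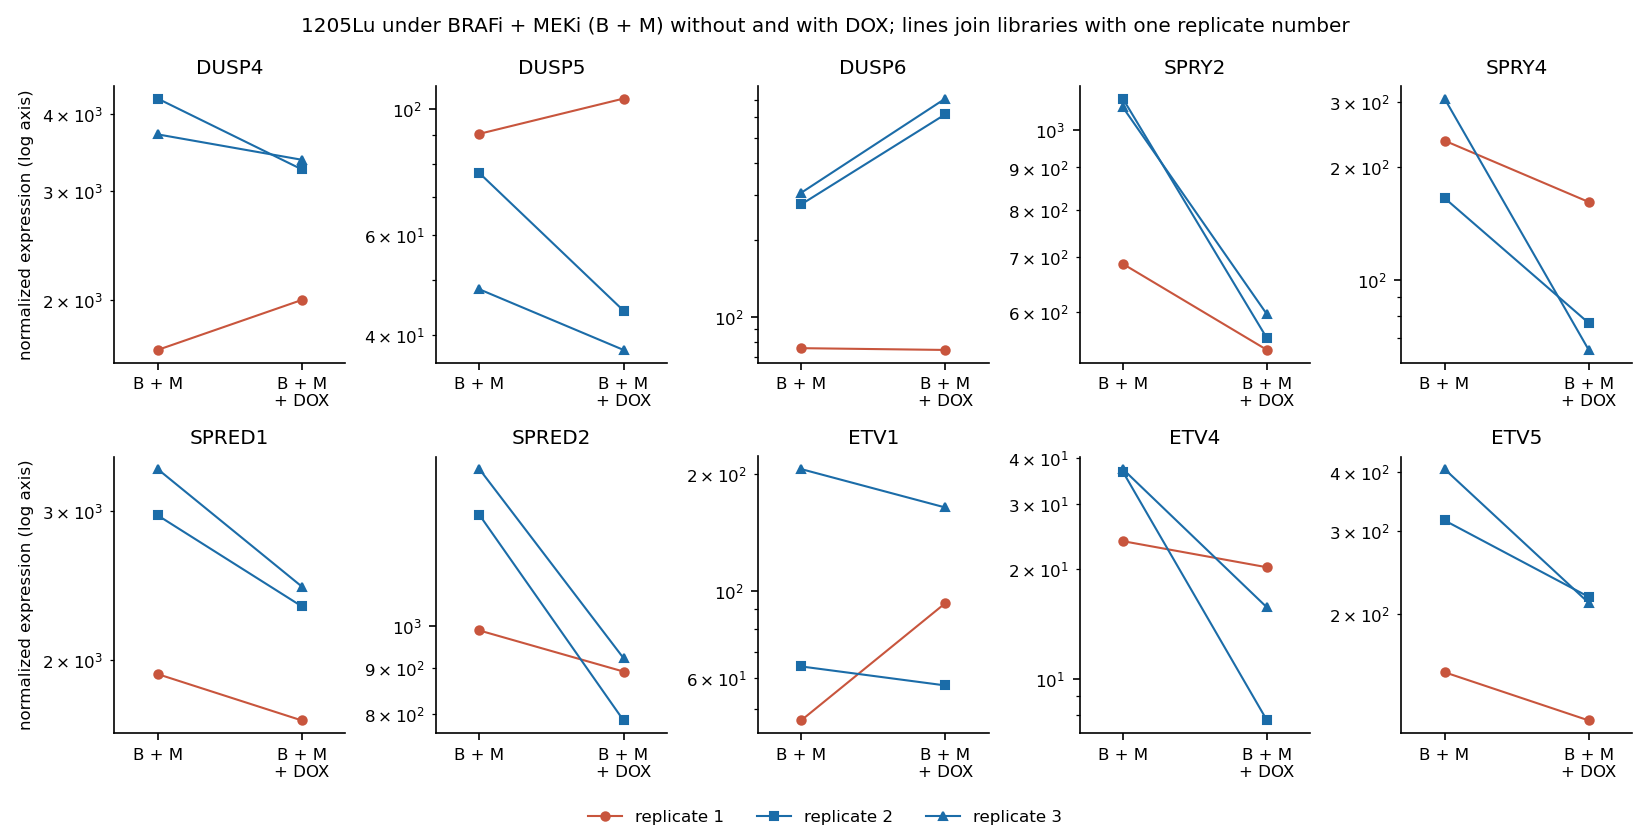
Normalized expression (log axis) of the 10 genes in 1205Lu under BRAFi + MEKi without and with DOX; each point is 1 library and lines join libraries with the same replicate number. SPRY2, SPRY4, SPRED1, SPRED2, ETV4 and ETV5 are lower with DOX in all 3 replicates, and DUSP6 is higher with DOX in replicates 2 and 3 and near 75 in both libraries of replicate 1.

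In WM793 and A375 the log2 differences lay between -0.51 and 0.50. In WM793 under BRAFi + MEKi, ETV5 stood at 1389, 838 and 1219 without and 2194, 1275 and 1433 with DOX, with overlap (log2 difference 0.50, 95% confidence interval 0.06 to 0.94, adjusted p = 0.543). DUSP5 was higher in every DOX library, at 115, 138 and 134 against 67.3, 113 and 108, as were 6.94% of all genes, but did not pass (adjusted p = 0.711). SPRY4, at 954, 446 and 452 without and 1170.4, 526 and 622 with DOX, differed by 0.33 (95% confidence interval -0.30 to 0.96). In A375, ETV1 stood at 1516, 1383 and 1236 without and 906, 679.8 and 1441 with DOX, with replicate 3 of the DOX group apart from its other libraries (log2 difference -0.51, adjusted p = 0.374). It was called lower without that library (-0.81, adjusted p = 0.0205), without replicate 3 in all groups (-0.88, adjusted p = 0.0314) and with array weights (-0.63, adjusted p = 0.0337). In A375 BRAFi + MEKi libraries, DUSP6 and SPRY2 were higher in every library with DOX, as were 8.28% of all genes, and DUSP4 was lower in every library, as were 7.13%. DUSP6 stood at 712, 603 and 628 against 505, 461 and 545 (log2 difference 0.36, adjusted p = 0.594), SPRY2 at 1190.1, 1186 and 1374 against 1168, 1123 and 1134 (adjusted p = 0.704) and DUSP4 at 2204, 2219.5 and 2167 against 2831, 2578 and 2368 (adjusted p = 0.71). No member passed the test of a difference between the DOX effects under BRAFi + MEKi and DMSO in WM793 (0% of all genes tested were called; 0 members at an unadjusted p under 0.05) or A375 (0.46%; 2 members, DUSP4 and SPRED1), by limma. Again no share of all genes was computed for the unadjusted p. For DUSP4 in A375 the difference was called without all of replicate 3 (-0.67, adjusted p = 0.0344). Under BRAFi + MEKi the summed melanocyte and melanoma markers were lower with DOX in every WM793 library (45277 to 54504 without, 32746 to 44309.5 with DOX), and in A375 they lay between 28066 and 44634 without and 21376 and 28402 with DOX, with overlap. None of the 6 markers tested in WM793 or the 7 in A375 was called by limma, with 0 and 2 (MITF and SOX10) at an unadjusted p under 0.05, for which no share of all genes was computed. The part of the markers was not tested.

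Compared between lines, the DOX effect under BRAFi + MEKi differed for 0 of 10 genes between 1205Lu and WM793 (0.138% of all genes tested were called by limma), 1205Lu and A375 (0.179%), and WM793 and A375 (0.881%). Members at an unadjusted p under 0.05 numbered 5, 4 and 0, and the share of all genes at that level was not computed. SPRY4 had the largest difference from WM793, -1.62 for 1205Lu minus WM793 (SE 0.45, 95% confidence interval -2.54 to -0.69, adjusted p = 0.167). It was called without the 1205Lu BRAFi + MEKi + DOX library of replicate 1 (-2.01, adjusted p = 0.0137) and with array weights (-1.95, adjusted p = 0.00247). SPRY2 differed by -0.85 between 1205Lu and A375 (adjusted p = 0.24), and was called without the 1205Lu BRAFi + MEKi library of replicate 1 (-1.06, adjusted p = 0.0448) and with array weights (-0.89, adjusted p = 0.0193). Array weights also called SPRY4 between 1205Lu and A375 (-1.46, adjusted p = 0.0253) and SPRED2 between 1205Lu and WM793 (-0.59, adjusted p = 0.0331) and between 1205Lu and A375 (-0.57, adjusted p = 0.0475).

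Other genes of the pathway were also measured, from lists of genes with known roles. The lists were chosen with earlier results of these data known, so their counts are not independent of the data. Of 15 further ERK target genes, 13 fell in 1205Lu, 9 in WM793 and 15 in A375 under BRAFi + MEKi without DOX, against 14.4%, 16.9% and 19% of all genes. None rose, and the medians were -2.73, -1.20 and -2.23 on the log2 scale. EGR1, an immediate early transcription factor, fell in all 3 lines (log2 difference -4.06, -7.39 and -4.19 in 1205Lu, WM793 and A375). FOSL1, an AP-1 subunit, fell in A375 (-5.36) and 1205Lu (-2.77), with -0.04 (adjusted p = 0.983) in WM793. CXCL8, a neutrophil chemokine, had the largest decrease of the list in A375 (-7.16). LIF, a cytokine of the IL6 family, gave -3.38, -4.23 and -1.92 and SH2B3, an adaptor that restrains cytokine receptor signaling, -3.97, -3.68 and -2.11, all called. With DOX present, 13, 9 and 14 fell, against 13.2%, 15.1% and 14.8% of all genes, and EPHA2, a receptor tyrosine kinase, rose in WM793 (0.98). MAFF, a small MAF transcription factor, was the only gene of this list called for DOX under BRAFi + MEKi, higher in WM793 (1.39, adjusted p = 0.0298).

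The remaining lists were compared between BRAFi + MEKi and DMSO without DOX, where 14.4%, 16.9% and 19% of all genes tested were called lower and 16.5%, 20.4% and 20.5% higher in 1205Lu, WM793 and A375. Of 7 other phosphatases of the family, 1 fell and 1 rose in 1205Lu, 2 fell and 0 rose in WM793, and 2 fell and 2 rose in A375, too few genes to be set apart from those shares. DUSP2, a nuclear phosphatase of ERK and p38, fell in all 3 lines (log2 difference -1.86, -4.88 and -2.40). DUSP1, an early response phosphatase that prefers p38 and JNK, rose in 1205Lu (1.43, adjusted p = 0.0317). DUSP10 and DUSP16, which act on p38 and JNK, rose in A375 by 0.59 and 1.23. The 3 remaining Sprouty and SPRED genes split: SPRED3 fell in all 3 lines (-3.39, -1.04 and -1.13), SPRY1 fell in WM793 (-3.49) and A375 (-2.65) but not in 1205Lu (-0.33, adjusted p = 0.6), and SPRY3 rose in all 3 (1.19, 1.11 and 0.99). Of 15 genes of the cascade itself, 2 fell and 1 rose in 1205Lu, 2 fell and 5 rose in WM793, and 4 fell and 2 rose in A375, counts not set apart from those shares either. KSR1, a scaffold for RAF, MEK and ERK, rose in all 3 lines (1.89, 1.36 and 1.37), and HRAS fell in all 3 (-0.89, -0.84 and -0.52). Of 9 regulators of the PEA3 factors and related ETS genes, 2 fell and 2 rose in 1205Lu, 3 fell and 2 rose in WM793, and 2 fell and 4 rose in A375. The list's median log2 differences of 0.06, -0.03 and 0.32 compare with 0.11, 0.15 and 0.06 over all genes tested. Among them, ATXN1L, the partner of CIC, rose in all 3 lines (0.90, 0.92 and 1.38) and ELK3, a ternary complex factor, fell in all 3 (-1.31, -0.44 and -0.96). ETS1 rose in all 3 (1.11, 2.26 and 0.47). ETS2 fell in WM793 (-1.41) and A375 (-1.45). With DOX present, SPRY3 passed in no line (0.97, 0.40 and 0.33; adjusted p = 0.0531, 0.451 and 0.436), SPRED3 fell in 1205Lu and A375 and HRAS in A375 alone (-2.98, -0.82 and -1.62 and -0.53, -0.40 and -0.61 in 1205Lu, WM793 and A375). ETS1 passed in WM793 and A375 and not in 1205Lu (0.30, adjusted p = 0.188). The DUSP1 value in 1205Lu (0.96, adjusted p = 0.142) and the DUSP10 value in A375 (0.45, adjusted p = 0.0896) did not pass with DOX, while DUSP10 fell in 1205Lu (-2.36). KSR1 and ATXN1L rose in all 3 lines with DOX as well, and DUSP2, SPRY1 and ELK3 fell in all 3.

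**Figure D5:**
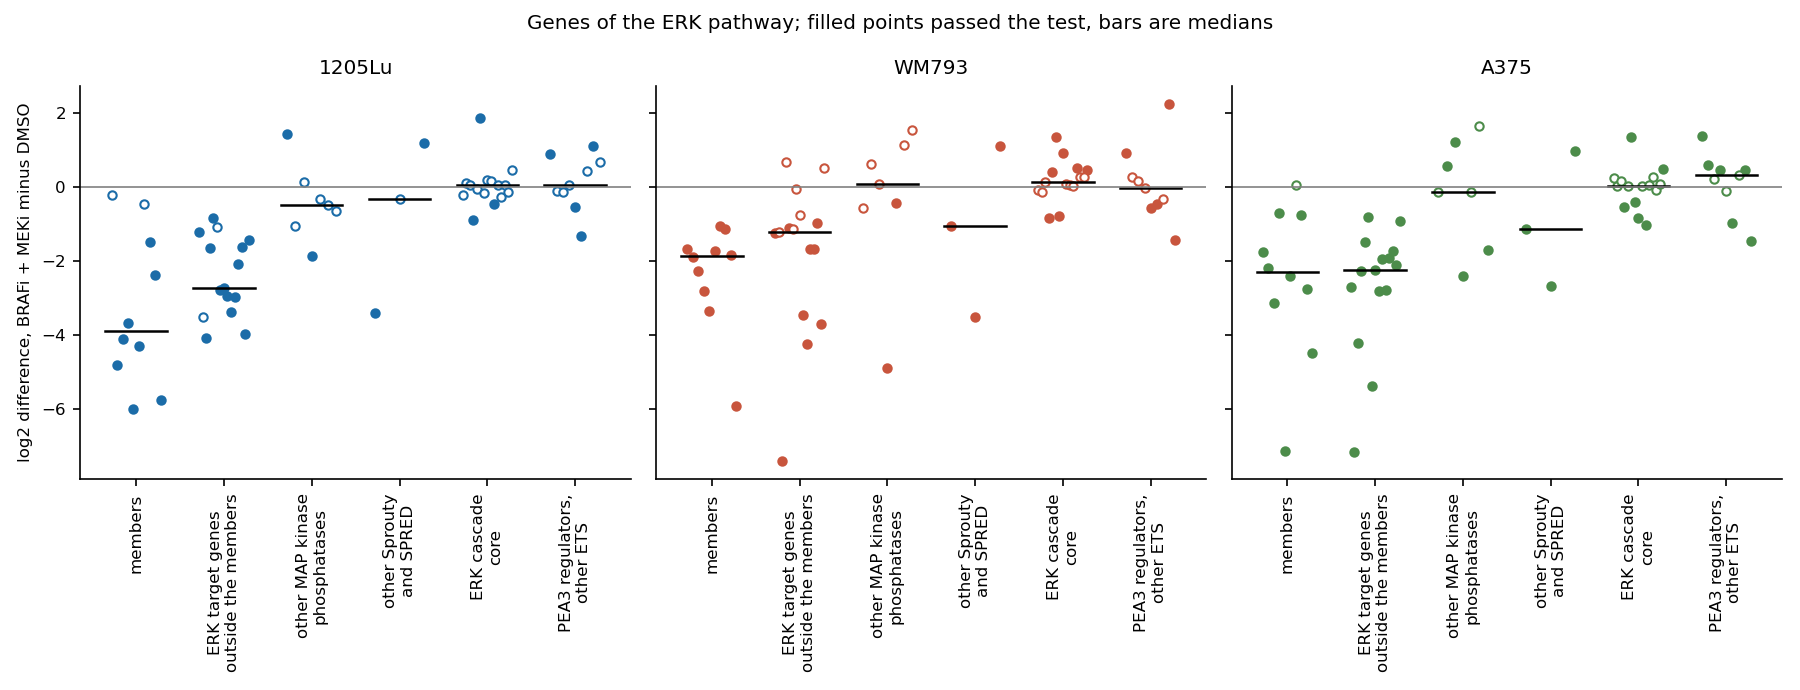
Log2 differences between BRAFi + MEKi and DMSO (y axis) without DOX for the 10 members and 5 other gene lists in each line; each point is 1 gene, filled where it passed the test, and bars are medians. The members and the 15 further ERK targets lie mostly below 0 in each line, and the cascade genes lie around 0.

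Across the 36 libraries, after each line's mean was subtracted, the genes whose log2 level followed DUSP6 most closely among 14650 genes with a mean of at least 30 were ACTN1, an actin crosslinker (r = 0.953), MCM7, a subunit of the replicative helicase (r = 0.944), LRATD2 (r = 0.94), LRP8, a lipoprotein receptor (r = 0.935), and PPIA, cyclophilin A (r = 0.933). Among the members, ETV5 (r = 0.922) and SPRY2 (r = 0.921) came 13th and 14th in that order and ETV4 (r = 0.901) 65th. SPRY4 (r = 0.882), SPRED2 (r = 0.875), DUSP5 (r = 0.84) and ETV1 (r = 0.837) followed, and DUSP4 (r = 0.778) and SPRED1 (r = 0.685) were least like DUSP6. These correlations describe 36 libraries that share 4 treatments and are not independent replicates, and no test was made.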

How the data were processed

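RNA of 3 melanoma lines was sequenced with TruSeq v2 libraries, 3 per group, which the study describes as independent experiments. Per the labels and the study's methods, the authors aligned reads to GRCh38 with STAR, quantified genes with RSEM and normalized with DESeq2. The deposited signal values are these normalized gene values, 1 file per library, with fractions, so that no count model was used and depth is given only as summed signal. 60401 of the 60656 gene IDs had a symbol in GENCODE 44. Values were tested as log2(value + 1) with limma 3.58.1 in R 4.3.3 (moderated test with a mean-variance trend), over genes whose mean reached 1 in some group, with Benjamini-Hochberg adjustment over all genes and a threshold of 0.05. Each line's 12 libraries were fitted together, and all 36 for differences between lines. Values per kb divide by the union of a gene's exons. Scripts were tested on simulated data.

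All 10 members were named. Of the pathway lists, up to 3 called genes with the largest change per list and comparison were named, beside genes of a member's own family, and the 5 genes most like DUSP6. The members and lists were chosen with earlier results of these data known, so they are not independent of them. Leaving out all libraries of 1 replicate number was added to the alternatives after values were seen. Deviations from group means of same-numbered libraries, over all genes tested, correlated above 0.1 in every pair between BRAFi + MEKi + DOX and BRAFi + MEKi of 1205Lu (r = 0.274, 0.109 and 0.113) and WM793 (0.251, 0.177 and 0.105), and not in every pair of the other comparisons. Among genes with a group mean of at least 30 it did so in all 4 comparisons of 1205Lu (0.28, 0.353 and 0.143 between BRAFi + MEKi and DMSO), between DMSO + DOX and DMSO and between both inhibitor groups of WM793, and between both inhibitor groups of A375.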

Additional observations from a re-analysis of the deposited data

Results flagged for a closer look

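The effect of BRAFi + MEKi differed between lines for the following genes, by limma's test of the difference in the fit of 36 libraries with adjustment over all genes. Each value is the log2 effect in the first line minus that in the second. Between 1205Lu and WM793 the differences were 1.47 for DUSP4, -2.90 for DUSP5, -2.65 for ETV4 and -2.56 for ETV5. Between 1205Lu and A375 they were 1.54 for DUSP4, -2.62 for DUSP5, -0.716 for SPRED2, -2.97 for ETV1 and -1.87 for ETV5. Between WM793 and A375 they were 0.927 for SPRY2, -1.41 for SPRY4, -1.12 for SPRED1, -2.11 for ETV1 and 3.79 for ETV4. DUSP4, DUSP5, ETV1, ETV4 and ETV5 each appear in 2 of the 3 pairs, and pairs that share a line share its libraries. Medium and line cannot be told apart in the comparisons with A375. DUSP6 is in none of these lists.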

How the results depend on the processing

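With 3 libraries per group, the settings that mattered most were those that down-weighted or left out libraries. Of the recomputed counts of called members, 362 stayed within 1.5 times the value reported and 13 moved, all of them counts of DOX effects that were 0 with all libraries. For single members, 3496 recomputed differences kept direction and call, 40 became called, 28 lost the call and 186 uncalled ones changed sign, and none that was called reversed. With array weights, the members changed by DOX under BRAFi + MEKi numbered 4 in 1205Lu and 1 in A375 (ETV1), and those whose DOX effect differed between lines numbered 2 for 1205Lu against WM793 and 3 for 1205Lu against A375, where calls over all 26779 genes tested went from 37 to 837 and from 48 to 785. When libraries were left out, the members changed by DOX under BRAFi + MEKi ranged from 0 to 7 in 1205Lu (3 without BRAFi + MEKi + DOX replicate 1, 7 without all of replicate 1) and from 0 to 1 in A375 (1 without BRAFi + MEKi + DOX replicate 3 or all of replicate 3). Those whose DOX effect differed between BRAFi + MEKi and DMSO ranged from 0 to 3 in 1205Lu and from 0 to 1 in A375, and those whose DOX effect differed between lines from 0 to 1 for 1205Lu against WM793 and from 0 to 1 for 1205Lu against A375. The counts that fell under BRAFi + MEKi were 8 throughout in 1205Lu and ranged from 9 to 10 in WM793 and 8 to 9 in A375. The cause of these shifts was not tested. The replicate block changed no count of members within a line (0 for DOX under BRAFi + MEKi in 1205Lu, as without it), and between lines it added ETV4 in DMSO (adjusted p = 0.0192) and the inhibitor effect on SPRY4 (0.0254) for 1205Lu against A375 and ETV5 in DMSO (0.045) for WM793 against A375. Over all genes, the DOX comparison under BRAFi + MEKi in 1205Lu called 74 genes, 364 with the replicate block and 1379 with array weights. The same comparison called 45, 127 and 478 genes in WM793 and 370, 601 and 1035 in A375. Rescaling to the same total moved the median of all genes in the BRAFi + MEKi comparison by 0.179 in WM793 and 0.142 in A375 on the log2 scale.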
